A study of Homo sapiens with 24 samples.

Results

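The aminoacyl-tRNA synthetases of PANC-1 cells, together with the scaffold proteins AIMP1 and AIMP2 that hold some of them in a complex, were examined in polysome profiles of cells treated with DMSO or with either of 2 compounds. Levels are given in CPM, counts scaled to the TMM-normalized library size and set to a common depth. The genes were chosen by symbol alone, as every gene named like a synthetase or like AIMP1 or AIMP2 that had at least 1 read in each of the 24 libraries. Of 40 symbols that matched, 39 met this condition, among 12058 genes tested. CARS2, the mitochondrial cysteine enzyme, was left out because 1 polysome library (cercosporamide, replicate 4) had no read of it, and its level in total RNA was 3.60 to 10.7 CPM. The 23 cytosolic members are 21 synthetases and the 2 scaffolds, and the 16 mitochondrial members are the synthetases whose symbols end in 2. AIMP2 also ends in 2 but is a scaffold of the cytosol, so it was placed with the cytosolic members. GARS1 and KARS1 each encode a cytosolic and a mitochondrial form of their enzyme and were also kept there.

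PANC-1 is an established line from a human pancreatic ductal adenocarcinoma, and all samples are cultures of this line. Cells received DMSO, 40 µM CID661578, described by the study as a ligand of the kinase MNK2, or 5 µM cercosporamide, an inhibitor of MNK kinases, for 6 h, in 4 replicates each. Each replicate of a treatment is called a plate here, 12 in all. The study seeded cells in plates but does not say that a replicate was a single plate. From each of these 12, total cytosolic RNA and RNA bound by more than 3 ribosomes (polysome-associated RNA) were sequenced. The 2 compounds were used at different doses. In 23 of the 24 libraries between 9268041 and 12184749 reads fell on genes, and the remaining one, polysome-associated RNA of cercosporamide replicate 4, held 1592459. The epithelial keratin genes KRT8, KRT18 and KRT19 were expressed in each library, and INS, PRSS1 and PTPRC, which mark beta cells, acinar cells and leukocytes, had no read in any.

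Each synthetase attaches its amino acid to the matching tRNA and so supplies the ribosome with charged tRNA. Cells hold a cytosolic and a mitochondrial set, nearly all encoded by separate nuclear genes and all translated by cytosolic ribosomes. The enzymes fall into classes I and II by the fold of their catalytic domain. Several cytosolic enzymes sit in the multi-synthetase complex with the scaffolds AIMP1 and AIMP2. When amino acids run short, uncharged tRNA activates the kinase GCN2, translation of the transcription factor ATF4 increases, and ATF4 and C/EBP proteins raise the transcription of many cytosolic synthetase genes through composite response elements with sequences such as TGATGNAA.

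Sequences that match TGATGNAA on either strand were looked for in the RefSeq windows from 250 bases before to 50 bases after annotated starts, because the amino acid response turns on this element. Windows were at hand for 31 of the 39 members, with no entry for AARS2, LARS1, TARS3, VARS1, VARS2 and YARS1 among others. A match was found for 7 of 18 cytosolic members and for 1 of 13 mitochondrial members, against 4.46% of 27305 genes with a window. All 7 cytosolic members with a match are among the 12 that are listed as amino acid response genes, of which 10 had a window, and none of the 8 other cytosolic members with a window had one. The matched stretches are given 5′ to 3′ on the strand of the gene (GRCh38.p14), with the match in capitals. TTGCATCA and TTTCATCA are matches read on the opposite strand.
AARS1, chr16:70289675-70289704, minus strand: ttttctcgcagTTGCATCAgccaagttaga
CARS1, chr11:3057407-3057436, minus strand: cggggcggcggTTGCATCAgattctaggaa
GARS1, chr7:30594834-30594863, plus strand: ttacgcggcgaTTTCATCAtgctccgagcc
IARS1, chr9:92293692-92293721, minus strand: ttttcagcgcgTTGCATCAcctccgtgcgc
MARS1, chr12:57488053-57488082, plus strand: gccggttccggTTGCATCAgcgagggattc
NARS1, chr18:57621804-57621833, minus strand: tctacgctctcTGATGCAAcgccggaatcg
TARS1, chr5:33440956-33440985, plus strand: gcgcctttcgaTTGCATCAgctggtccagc
YARS2, chr12:32756076-32756105, minus strand: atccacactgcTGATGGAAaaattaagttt
A match is a description of these letters and not evidence that a factor binds there.

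Levels of different members were compared per kilobase of the canonical transcript, in CPM per kilobase of total RNA with DMSO (mean ± SD, n = 4). Cytosolic members were the more abundant group, with a median of 47.0 against 10.5 for mitochondrial members. FARSA, the catalytic subunit of the phenylalanine enzyme, stood highest at 192 ± 30.8, followed by MARS1 at 172 ± 32.2 and CARS1 at 169 ± 90.7. The mitochondrial serine enzyme SARS2 was the most abundant of its group at 69.6 ± 10.99, below 6 cytosolic members. AARS2, the mitochondrial alanine enzyme, stood at 1.13 ± 0.390, and TARS3, a further threonine enzyme, was the lowest of all at 0.299 ± 0.169. For 37 of 38 neighbours in this order the ranges over the 4 libraries overlapped, so the order of single members is not resolved.

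With DMSO, most members were found in polysomes more than the typical gene. The log2 ratio of polysome-associated to total RNA had a median of 0.36 over cytosolic and 0.41 over mitochondrial members, against -0.01 over all genes tested. By edgeR's quasi-likelihood test with a Benjamini-Hochberg adjusted p below 0.15 and more than 1.2-fold, 15 of 23 cytosolic and 8 of 16 mitochondrial members were higher in polysome-associated RNA (background 26.4% of all genes), and FARSB and RARS2 were lower (background 29.6%). Among the 13 amino acids whose cytosolic and mitochondrial genes have symbols ending in 1 and 2, the cytosolic gene had the higher ratio in 6 pairs.

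VARS1, the cytosolic valine enzyme, had the highest ratio, with 246, 221, 340 and 302 CPM in total RNA and 594, 726, 838 and 922 in polysome-associated RNA of the 4 DMSO plates. All of its polysome libraries lay above all of its total libraries, and the log2 ratio was 1.47 ± 0.21 (SE, adjusted p = 5.2e-06, edgeR). AARS2 stood at 4.67, 8.14, 3.902 and 4.95 in total and at 8.87, 11.6, 15.2 and 16.8 in polysome-associated RNA, again without overlap, with a log2 ratio of 1.29 ± 0.29 (adjusted p = 0.00097, edgeR). Its cytosolic counterpart AARS1 had 46.7, 29.4, 54.4 and 63.0 CPM in total and 72.1, 62.9, 159 and 124 in polysome-associated RNA. The ranges of AARS1 met only in that its lowest polysome library fell just below its highest total library, and the log2 ratio was 1.06 ± 0.17 (adjusted p = 2.8e-05, edgeR). FARSB, the second subunit of the phenylalanine enzyme, went the other way, with 164, 91.9, 164 and 169 in total and 83.4, 48.0, 99.7 and 99.3 in polysome-associated RNA, a log2 ratio of -0.85 ± 0.17 (adjusted p = 0.00034, edgeR). FARSA, its partner in the same enzyme, had a log2 ratio of 0.26 ± 0.19 that did not pass the test. These ratios depend on how the fractions are scaled to each other: with TMM computed within each fraction the median of all genes moved to 0.26, and the group medians to 0.63 and 0.69.

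Translation efficiency (TE) is used here for polysome-associated RNA relative to total RNA, and a TE change is the change of that log2 ratio against the DMSO plates, fitted over all 24 libraries with terms for plate and replicate. With cercosporamide, TE rose for 12 of 23 cytosolic members and fell for 1, whereas it rose for 3 of 16 mitochondrial members and fell for none (background 15.8% of all genes higher and 12.6% lower). The mitochondrial share, 18.75%, is near the 15.8% of all genes and is no result about those members. The median TE change was 0.55 over cytosolic and 0.03 over mitochondrial members, and -0.0005 over all genes. Of the fitted changes of mitochondrial members 8 were above 0 and 8 below. In single replicates the median change of cytosolic members was 0.62, 0.70, 0.12 and 0.70, and that of mitochondrial members 0.40, 0.47, -0.15 and 0.26. The median of all genes was 0.03, -0.02, 0.12 and -0.03. Within each replicate the cytosolic median was thus higher than the mitochondrial one. In replicate 3, however, the cytosolic median was at the level of all genes and the mitochondrial median was below it. The mitochondrial medians of the other replicates lay above 0 and above those of all genes.

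**Figure D1:**
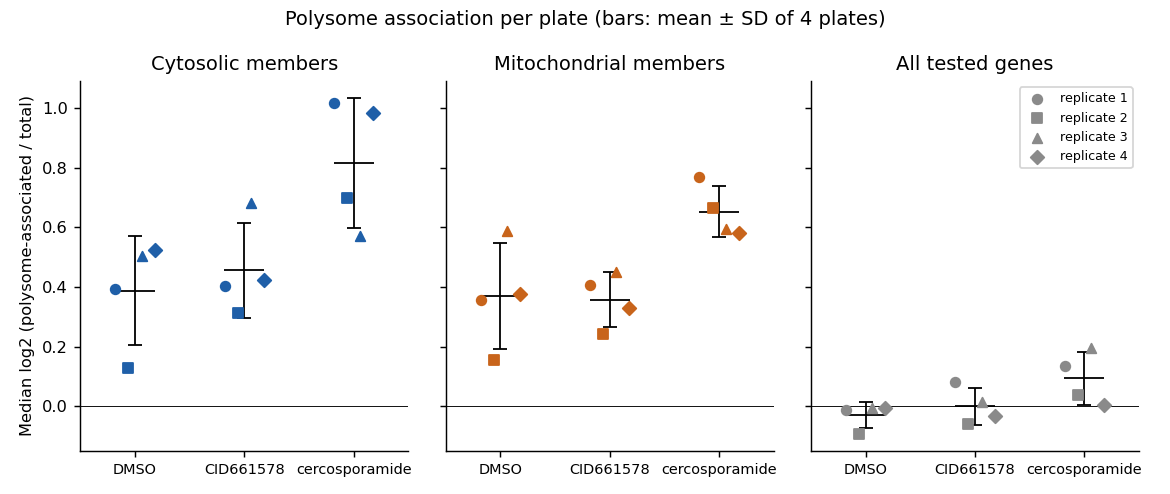
Median log2 ratio of polysome-associated to total RNA over the 23 cytosolic members, the 16 mitochondrial members and all 12058 genes, one marker per plate (4 replicates, marker shape), with the mean ± SD as bars, for DMSO, CID661578 and cercosporamide. The cytosolic median averaged 0.388 with DMSO, 0.455 with CID661578 and 0.816 with cercosporamide. The mitochondrial median averaged 0.370, 0.357 and 0.653, and that of all genes -0.030, 0.0003 and 0.093. For cytosolic members the 4 cercosporamide plates lie between 0.571 and 1.02, above the highest DMSO plate at 0.525. In replicate 3 the cytosolic median was 0.503 with DMSO and 0.571 with cercosporamide, while that of all genes was -0.006 and 0.196.

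Asparaginyl-tRNA synthetase, NARS1, had the highest TE change with cercosporamide. Its total RNA stood at 87.9, 59.5, 202 and 96.3 CPM with DMSO and at 66.3, 40.4, 190 and 63.9 with cercosporamide, and its polysome-associated RNA at 118, 65.1, 225 and 151 with DMSO and at 257, 166, 399 and 310 with cercosporamide. Polysome-associated NARS1 was higher in each replicate while total NARS1 was lower in each, and the log2 ratio lay between 1.07 and 2.28 in cercosporamide plates against 0.13 to 0.65 in DMSO plates. The TE change was 1.495 ± 0.26 (SE), or 2.82-fold (adjusted p = 0.0006, edgeR). TARS1, the cytosolic threonine enzyme, had 102, 100, 213 and 142 in total RNA with DMSO and 98.2, 67.9, 178 and 115 with cercosporamide, while polysome-associated TARS1 went from 151, 94.8, 252 and 219 to 318, 239, 357 and 448. Its TE change was 1.28 ± 0.24, or 2.43-fold (adjusted p = 0.00095, edgeR), and the log2 ratios of the 2 groups of plates did not overlap.

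The multi-synthetase complex holds 8 of the synthetases measured, among them EPRS1, IARS1, KARS1, LARS1, MARS1, QARS1 and RARS1, and the scaffolds AIMP1 and AIMP2. EEF1E1, a further component of the complex, was left out of the members. TE rose for 6 of the 10 members in the complex with a median of 0.79, and for 6 of the 13 cytosolic members outside the complex with a median of 0.30, against 15.8% of all genes. EPRS1, which charges glutamate and proline, had 80.0, 62.0, 165 and 111 CPM in total RNA with DMSO and 60.1, 57.6, 109 and 54.5 with cercosporamide. Polysome-associated EPRS1 went from 150, 109, 157 and 212 to 256, 177, 251 and 277. Each replicate showed the same pair of directions, and the TE change was 1.17 ± 0.26 (adjusted p = 0.0036, edgeR). LARS1, the leucine enzyme that also serves as a leucine sensor, went from 55.2, 35.1, 58.5 and 61.4 to 33.0, 27.7, 56.0 and 33.9 in total and from 72.6, 54.3, 96.7 and 109 to 144, 109, 150 and 134 in polysome-associated RNA, a TE change of 1.23 ± 0.26 (adjusted p = 0.0027, edgeR).

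AIMP1 had 62.8, 113, 70.4 and 63.4 in total RNA with DMSO and 74.9, 87.7, 112 and 84.7 with cercosporamide, and its polysome-associated RNA went from 88.6, 64.3, 60.5 and 71.0 to 169, 135, 190 and 261. All 4 cercosporamide polysome libraries lay above all 4 of DMSO, and the TE change was 1.14 ± 0.23 (adjusted p = 0.0018, edgeR). AIMP2 stood at 117, 70.6, 170 and 150 in total and 136, 95.5, 240 and 137 in polysome-associated RNA with DMSO, and at 129, 92.1, 147 and 116 and at 126, 135, 187 and 250 with cercosporamide. These ranges overlapped in both pools, with a TE change of 0.23 ± 0.26 that did not pass the test. Of the other members of the complex, RARS1, the arginine enzyme, had a TE change of 1.01 ± 0.25. KARS1, the shared lysine enzyme, went from 117, 107, 138 and 149 to 114, 94.6, 118 and 115 in total and from 119, 94.7, 195 and 215 to 173, 205, 164 and 226 in polysome-associated RNA. One of its replicates, the third, was lower in polysome-associated RNA, and its TE change was 0.57 ± 0.25 (adjusted p = 0.13, edgeR). IARS1 at 0.54 ± 0.27, MARS1 at 0.31 ± 0.24 and QARS1 at 0.00 ± 0.24 did not pass.

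By catalytic class, TE rose for 8 of 11 cytosolic members of class II and for 2 of 9 of class I, with medians of 0.58 and 0.30. The class I share, 22.2%, is near the 15.8% of all genes and is no result about those members. EPRS1 carries a domain of each class and AIMP1 has none. The class II members outside the complex include HARS1, the histidine enzyme, at 0.81 ± 0.24, both subunits of the phenylalanine enzyme, FARSB at 0.64 ± 0.24 and FARSA at 0.58 ± 0.27, and GARS1 at 0.55 ± 0.22. The shared glycine gene GARS1 went from 128, 116, 467 and 161 to 114, 87.3, 268 and 135 in total RNA and from 162, 115, 406 and 184 to 231, 134, 391 and 169 in polysome-associated RNA. Its polysome-associated RNA did not move in 1 direction, and the TE change (adjusted p = 0.096, edgeR) went with lower total RNA in each replicate. AARS1 at 0.16 ± 0.24 and SARS1 at 0.28 ± 0.24, both of class II, did not pass.

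At the other end of the cytosolic group, TE of the tyrosine enzyme YARS1 fell by 0.51 ± 0.23 (adjusted p = 0.148, edgeR, just inside the threshold). YARS1 had 107, 56.5, 158 and 116 in total and 120, 90.3, 323 and 150 in polysome-associated RNA with DMSO, and 136, 91.9, 123 and 106 and 150, 123, 156 and 64.9 with cercosporamide. The ranges overlapped in both pools, although the ratio was lower in each replicate. TARS3 was measured at 0.727, 0.916, 1.91 and 0.618 in total and 2.83, 1.89, 1.49 and 1.34 in polysome-associated RNA with DMSO, and at 1.54, 1.57, 1.29 and 0.496 and at 2.54, 1.47, 0.634 and 1.99 with cercosporamide. At these levels a TE change of -0.70 ± 0.61 was not distinguishable from 0.

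**Figure D2:**
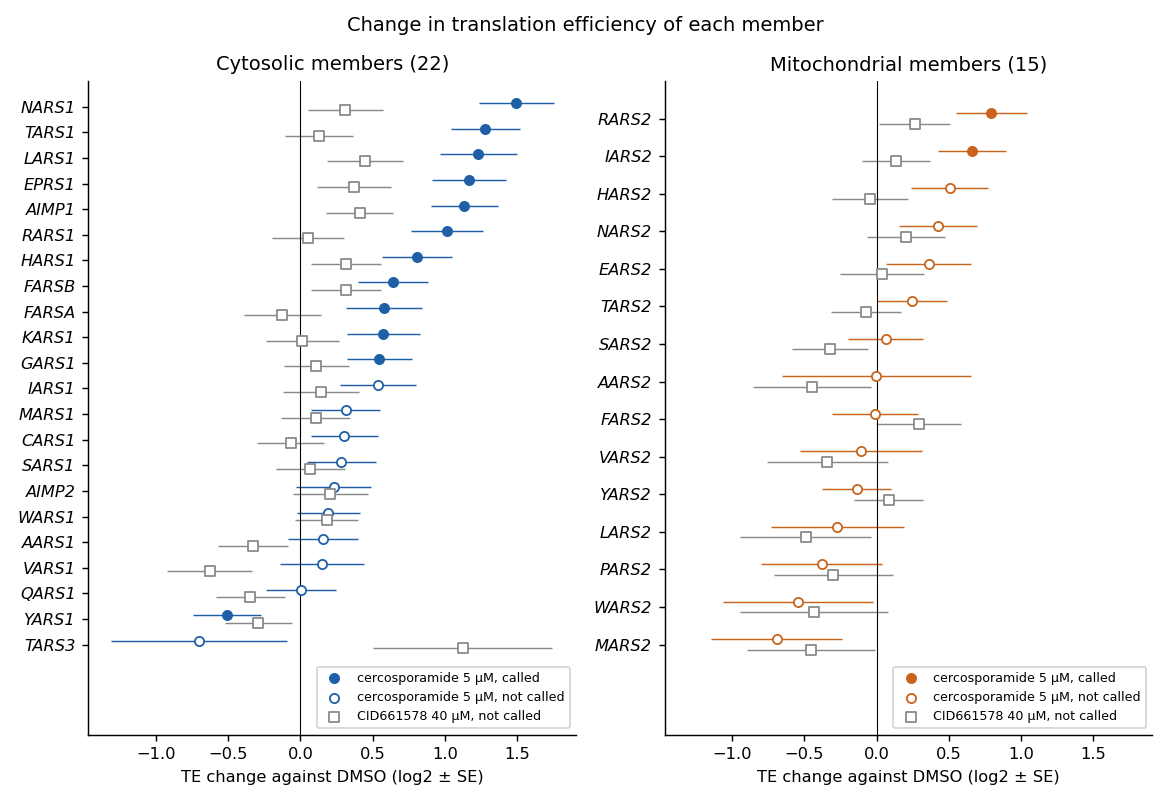
TE change against DMSO (log2, bars ± SE) of 22 cytosolic members (left) and 15 mitochondrial members (right), in the order of the change with cercosporamide, for cercosporamide (circles) and CID661578 (squares), filled where the change passed an adjusted p below 0.15 and more than 1.2-fold. With cercosporamide 11 cytosolic and 2 mitochondrial members of those drawn lie to the right as filled circles, and no square is filled.

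Among mitochondrial members, the arginine enzyme RARS2 went from 56.4, 52.1, 66.7 and 56.9 to 56.4, 47.5, 83.9 and 75.7 in total and from 53.4, 31.0, 47.6 and 50.3 to 79.9, 64.9, 109 and 96.7 in polysome-associated RNA, with no overlap in the latter and a TE change of 0.80 ± 0.24 (adjusted p = 0.028, edgeR).

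TE also rose for IARS2, the isoleucine enzyme, by 0.66 ± 0.24 (adjusted p = 0.057, edgeR). The lowest changes belonged to MARS2 and WARS2, the mitochondrial methionine and tryptophan enzymes. MARS2 went from 10.4, 7.63, 6.42 and 10.5 to 11.5, 11.8, 15.8 and 7.14 in total and from 7.93, 9.69, 16.3 and 13.1 to 11.4, 6.93, 10.3 and 11.3 in polysome-associated RNA. WARS2 went from 2.91, 1.22, 9.45 and 7.07 to 6.44, 2.30, 10.3 and 8.13 and from 5.38, 4.60, 9.70 and 7.32 to 6.22, 6.12, 5.71 and 8.61. Neither separated the groups in either pool, and their TE changes of -0.69 ± 0.45 and -0.54 ± 0.52 were within error.

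For 13 amino acids the cytosolic and mitochondrial genes have symbols that differ only in the final 1 or 2, which allows a comparison within each amino acid. Phenylalanine, glutamate and proline also have measured genes for each compartment. Their symbols do not pair in this way, and they were left out of the comparison. The TE change with cercosporamide was higher for the cytosolic gene in 10 of the 13 pairs, and in 4 of them, for leucine, asparagine, threonine and tryptophan, it was so in each replicate. LARS2 and WARS2 were weakly measured, with lowest counts of 20 and 12 reads. The widest pairs were leucine, with LARS1 at 1.23 and LARS2 at -0.27, asparagine, with NARS1 at 1.495 and NARS2 at 0.43, and threonine, with TARS1 at 1.28 and TARS2 at 0.24. With the GC trend of each library removed, as described below, they stood at 0.76 and -0.09, 1.04 and 0.17, and 0.93 and 0.51. TARS2 was then called. For arginine both genes passed the test, with RARS1 at 1.01 beside RARS2 at 0.80. The histidine genes HARS1 and HARS2 lie head to head, and here only HARS1 passed, at 0.81 against 0.51 ± 0.26 for HARS2, a difference that was not tested. Over the 13 pairs the median difference was 0.26 on the log2 scale.

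The change in each pool was then read separately. In polysome-associated RNA, cercosporamide raised 9 cytosolic members and 1 mitochondrial member at an adjusted p below 0.15 and lowered none (background 17.1% of all genes higher and 16% lower). They included AIMP1 at 1.35 ± 0.19, RARS1 at 1.17 ± 0.17, NARS1 at 1.05 ± 0.18, TARS1, HARS1, LARS1, FARSA and EPRS1, and, of the mitochondrial members, RARS2 at 0.92 ± 0.18. In total RNA no member passed in either direction (background 0.0498% higher and 0.0332% lower), and at an unadjusted p below 0.05 none was higher and 3 were lower. Of the 16 members with a called TE change, the change in polysome-associated RNA was the larger for 13, and that in total RNA was the larger for 3, GARS1 and IARS2 among them. Total and polysome-associated RNA are measured as shares of their libraries, so a change in the amount of RNA per cell would not show.

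**Figure D3:**
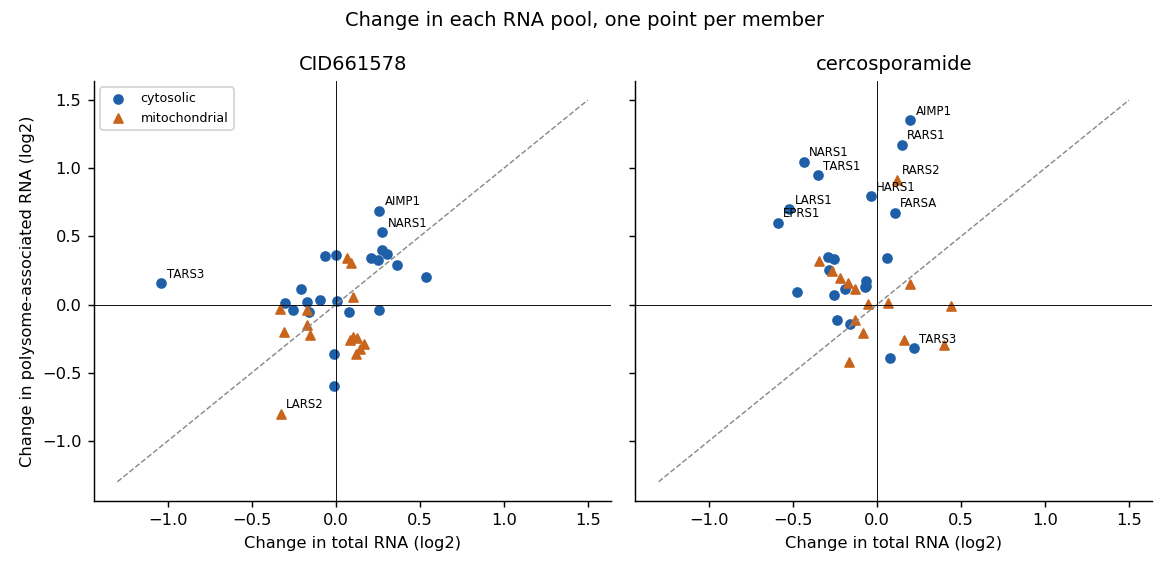
Change in total RNA (x axis, log2) against change in polysome-associated RNA (y axis, log2) for 22 cytosolic (circles) and 15 mitochondrial (triangles) members, with CID661578 (left) and cercosporamide (right), where the dashed line marks equal change in both pools and names mark members called in polysome-associated RNA and TARS3. With cercosporamide the called members lie well above the dashed line, with AIMP1 the highest at 1.35 in polysome-associated RNA.

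GC content moved with these changes. Across the 39 members the TE change with cercosporamide had a Pearson r of -0.51 and a Spearman rho of -0.58 with the GC content of the canonical transcript, and across 11661 genes with an annotated transcript r was -0.51, both given as a description over genes of the same libraries. The 15 members with a rise in TE had a median GC content of 42.3% (35.2 to 61.3%), and the other 24 had 51.7% (42.4 to 61.7%). Cytosolic members had a median GC content of 47.3% and mitochondrial members 49.9%. The GC content of the annotated 5′ UTR, over 35 members with at least 20 nt of it, had a smaller r of -0.20. Transcript length did not separate them, with medians of 2762 nt for the members that rose and 2732 nt for the others.

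With the GC trend of each library removed before the same fit, TE rose for 13 of 23 cytosolic and 3 of 16 mitochondrial members (background 8.99% of all genes higher and 12.4% lower), and the medians were 0.51 and 0.28. The members called were only in part the same: 10 were called either way, which is 66.7% of the 15 and 62.5% of the 16. NARS1 at 1.04 ± 0.22, TARS1 at 0.93 ± 0.21, EPRS1 at 0.77 ± 0.23, LARS1 at 0.76 ± 0.22 and RARS1 at 0.51 ± 0.21 remained, as did HARS1, FARSA, GARS1 and KARS1. AIMP1, with the lowest GC content of all members, went from 1.14 to 0.32 ± 0.21 and lost its call, and so did FARSB, RARS2 and IARS2. YARS1, the only member called lower, went from -0.51 to -0.30 ± 0.21 and was no longer called (adjusted p = 0.40, edgeR). CARS1, MARS1, SARS1, VARS1, HARS2 and TARS2 gained one. After this correction the counts by class were 7 of 11 for class II and 5 of 9 for class I, and those by complex 5 of 10 inside and 8 of 13 outside. The study reported that mRNAs with raised translation under either compound had 5′ UTRs of low GC content. Whether removing the trend also removes part of an effect of treatment was not tested. The part of GC content in the uncorrected changes was not tested further.

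In fits without each replicate in turn, 8 of the 16 members with a call were called each time, among them AIMP1, EPRS1, LARS1, NARS1, RARS1 and TARS1, while FARSA, GARS1, KARS1 and YARS1 were called in only 1 of the 4 fits. Without replicate 2 the cytosolic rises numbered 8 and the mitochondrial ones 1 (background 1045 of 12154 genes higher). Without replicate 3 they numbered 11 and 4 (1659 of 12167 genes). Without both libraries of cercosporamide replicate 4, whose polysome library is shallow, they numbered 11 and 3 (1768 of 13240 genes). A fit with neither plate nor replicate terms called 2 and 1, beside 621 higher and 336 lower of 12058 genes. The counts of that fit are no result about the members.

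The CID661578 plates were compared with the same DMSO libraries as the cercosporamide plates. No member passed the TE test with CID661578 (background 0.00829% of all genes higher and 0.199% lower). At an unadjusted p below 0.05 none was higher and only VARS1 was lower. DESeq2 with the same model also called 0 members. Among all genes the edgeR fit called 1 higher and 24 lower, so the lack of calls does not show that members were unchanged. The study, with anota2seq, reported mRNAs with altered translation that were shared by both compounds, and they were far more than the genes called with CID661578 here. The analysis of partial variance, an alternative that follows the description of anota2seq, called 20 genes higher and 25 lower with CID661578. In the edgeR fit the median TE change was 0.13 over cytosolic and -0.06 over mitochondrial members, against 0.03 over all genes. TARS3 and LARS1 were the highest cytosolic members and VARS1 and QARS1 the lowest. In the CID661578 plates TARS3 had 0.525, 0.220, 0.651 and 0.539 CPM in total and 2.89, 1.37, 1.21 and 3.23 in polysome-associated RNA, a TE change of 1.12 ± 0.62 (adjusted p = 0.61, edgeR). The CID661578 range overlapped that of DMSO in both pools.

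LARS1 had 99.2, 29.2, 43.7 and 42.6 in total and 119, 68.1, 118 and 117 in polysome-associated RNA with CID661578, overlapping the DMSO values in both, with a TE change of 0.45 ± 0.26. VARS1 had 177, 498, 232 and 335 in total and 530, 763, 415 and 432 in polysome-associated RNA, a TE change of -0.63 ± 0.29 (adjusted p = 0.54, edgeR). QARS1, the glutamine enzyme, went from 139, 122, 96.1 and 102 to 87.4, 116, 122 and 128 in total and from 144, 150, 163 and 181 to 115, 131, 133 and 116 in polysome-associated RNA. The polysome ranges of QARS1 did not overlap, with each CID661578 library below each DMSO library, but the change of -0.36 ± 0.17 in that pool missed the threshold (adjusted p = 0.24, edgeR).

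Of the mitochondrial members, FARS2 was among the highest in TE change with CID661578 at 0.29 ± 0.29, and LARS2 at -0.49 ± 0.45 and MARS2 at -0.45 ± 0.44 were the lowest. FARS2, the phenylalanine enzyme, went from 25.5, 34.3, 37.3 and 26.4 to 19.7, 27.0, 30.5 and 22.1 in total RNA and from 42.9, 22.99, 55.1 and 35.7 to 32.5, 30.3, 48.4 and 38.4 in polysome-associated RNA. In total RNA each of these values of FARS2 was below DMSO of the same replicate, although the groups overlapped.

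In polysome-associated RNA alone, CID661578 raised AIMP1 by 0.69 ± 0.18 (adjusted p = 0.042, edgeR) and NARS1 by 0.53 ± 0.18 (adjusted p = 0.11, edgeR). They are 2 of the 3 called among 23 cytosolic members, or 13.0% (background 6.34% of all genes). Polysome-associated AIMP1 stood at 134, 97.3, 105 and 122 CPM with CID661578, all above the DMSO libraries given above. LARS2, the mitochondrial leucine enzyme, went from 14.3, 8.78, 19.97 and 20.1 to 10.5, 7.99, 10.1 and 6.99 and was the only member called lower (-0.80 ± 0.28, adjusted p = 0.11, edgeR, background 3.93%). Over all 39 members, 7.69% were called higher and 2.56% lower. These shares are near those of all genes, so the counts are no result about the members. Polysome-associated NARS1 stood at 239, 95.8, 236 and 206 with CID661578, above DMSO of the same number in each replicate, and total NARS1 at 187, 77.1, 111 and 114. MARS2 had 8.83, 9.45, 6.51 and 15.1 in total and 9.47, 10.98, 12.2 and 5.59 in polysome-associated RNA, which overlapped DMSO in both. With the GC trend removed, none of the 4 members called in this pool was called.

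Set against each other, the 2 compounds differed in TE for 10 members, all cytosolic. TE with CID661578 was lower than with cercosporamide for NARS1 (-1.18 ± 0.26, adjusted p = 0.012), TARS1 (-1.15 ± 0.24, adjusted p = 0.0086), RARS1 (-0.96 ± 0.25, adjusted p = 0.025), and for EPRS1, LARS1, VARS1, AIMP1 and FARSA among others (edgeR; background 7.57% of all genes). It was higher for TARS3 (1.82 ± 0.65, adjusted p = 0.092, edgeR; background 7.93%), which rests on a few CPM. No mitochondrial member passed, with a median difference of -0.28 against -0.48 for cytosolic members and -0.03 for all genes. The doses differ, 40 and 5 µM, so the difference is between these treatments and not between the compounds at matched dose. Without replicate 2 the lower calls numbered 2, and without replicate 4 they numbered 4.

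The amino acid response was examined in total RNA, where its transcriptional arm would be seen. Of 16 genes of this response outside the synthetases, 8 rose with CID661578 at an adjusted p below 0.15 and none fell (background 0.307% of all genes higher and 0.166% lower). Without replicate 4 only DDIT4 was called, without replicate 1 the count was 5, and in a fit with no replicate block it was 0, although 15 of the 16 changes were positive in each of these fits. Over all genes the same fits called 8 of 13366, 57 of 12153 and 3 of 12058 higher. The 8 response genes called in the main fit were DDIT4 at 3.10 ± 0.46, TRIB3 at 2.46 ± 0.43, SESN2 at 2.36 ± 0.49 and CHAC1 at 2.19 ± 0.40, followed by ATF3, DDIT3, ATF4 and NUPR1. The other 8, ASNS, PSAT1, PHGDH, PSPH, SHMT2, CEBPB, SLC7A11 and SLC3A2, were not called. DDIT4 and SESN2 restrain mTORC1, TRIB3 is a pseudokinase that feeds back on ATF4, and CHAC1 degrades glutathione. No member passed the same test in total RNA with CID661578 by edgeR or DESeq2, and at an unadjusted p below 0.05 AARS1 was higher and 1 mitochondrial member lower (edgeR). Of 12 members listed as targets of the response, 8 had a positive change, and the median was 0.24, against -0.01 for the other 11 cytosolic members and 0.08 for mitochondrial members. AARS1 was the highest, with 62.7, 81.3, 56.8 and 79.0 CPM with CID661578 against 46.7, 29.4, 54.4 and 63.0 with DMSO, higher in each replicate but overlapping between groups, at 0.54 ± 0.24 (adjusted p = 0.65, edgeR). Next were CARS1 at 0.37 ± 0.18 and SARS1 at 0.31 ± 0.18.

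Replicate 3 stood apart in this response, with either compound and with DMSO. The summed level of the 16 response genes in total RNA was 4870 CPM in DMSO replicate 3 and 1544 to 1640 in the other DMSO libraries, 5166 against 2343 to 3782 with CID661578 and 3197 against 1361 to 1674 with cercosporamide. The summed level of the 12 listed synthetases was 3426 in DMSO replicate 3 and 1405 to 2129 in the others, and 2787 against 1343 to 1763 with cercosporamide. Among single members, CARS1 stood at 322, 282, 824 and 420 with DMSO and at 328, 279, 656 and 356 with cercosporamide, SARS1 at 213, 157, 460 and 272 and at 296, 178, 418 and 264, and GARS1 and NARS1, given above, likewise peaked in the third plate of each. Of the 12 listed members, 9 were highest in replicate 3 among the DMSO libraries, 11 among those with cercosporamide and 5 among those with CID661578.

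Of the 11 other cytosolic members 3 were highest in replicate 3 with DMSO, 6 with cercosporamide and 2 with CID661578, and of the 16 mitochondrial members 7, 6 and 2. Over all genes these shares were 28.8%, 31.9% and 24.7%. The summed level in DMSO replicate 3 was 1603 against 1344 to 1615 in the other DMSO libraries for the other cytosolic members, and 620 against 530 to 578 for mitochondrial members. The median change of the 12 listed synthetases in total RNA was 0.68, 0.39, -0.33 and 0.18 in the 4 replicates, and that of the 16 response genes was 1.16, 1.06, 0.11 and 1.79. Without replicate 3 the median of the listed synthetases was 0.46, and without replicate 1 it was -0.05, with none called in either case. With cercosporamide the median of the listed synthetases in total RNA was -0.27, with 2 of 12 positive.

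**Figure D4:**
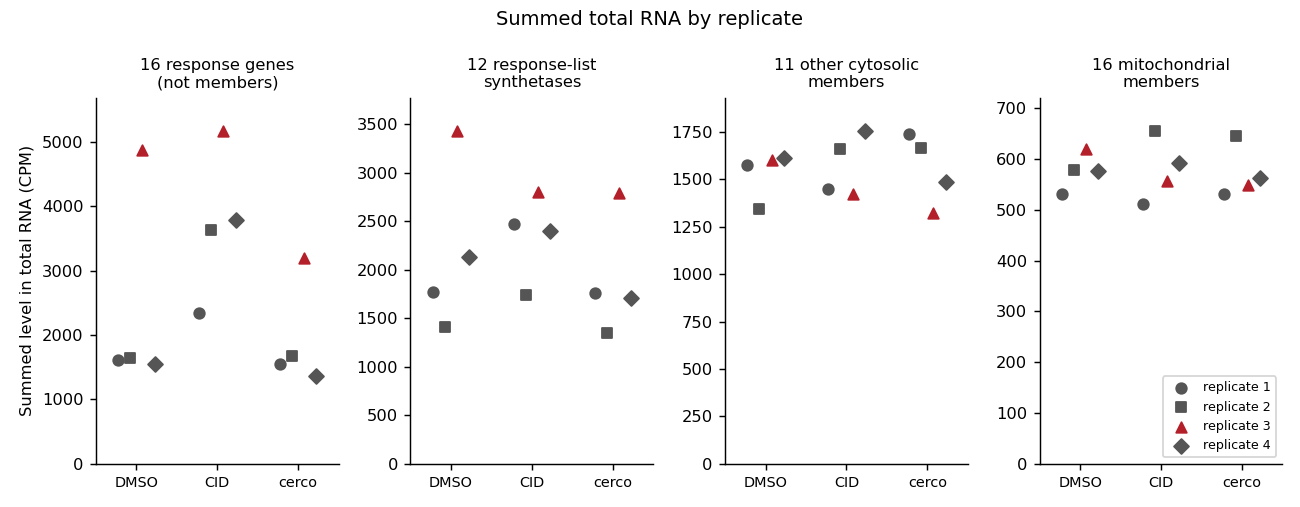
Summed level in total RNA (CPM, axes from 0) of the 16 response genes that are no members, the 12 listed synthetases, the 11 other cytosolic members and the 16 mitochondrial members, one marker per library with DMSO, CID661578 (CID) and cercosporamide (cerco), with replicate 3 in red. Replicate 3 is the highest library of each treatment in the first 2 panels, and it is not in the third.

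For MARS1 one more limit applies. Its span on chromosome 12 overlaps that of DDIT3, and reads were counted without strand, so reads from stretches they share could not be assigned to either. With CID661578 the change in total RNA was -0.16 ± 0.17 for MARS1 and 1.89 ± 0.29 for DDIT3. In all, the spans of 24 of the 39 members overlap that of another RefSeq gene on either strand, among them AIMP1 with TBCK, AIMP2 with EIF2AK1 and YARS1 with S100PBP. Spans include introns, and whether exons overlap was not examined.

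The proteins that handle tRNA around the synthetases were read from a list of 20 partners, of which 18 had reads in each library and were tested. With cercosporamide TE rose for 4 of the 18, or 22.2%, which is near the 15.8% of all genes, and fell for none, with a median of 0.13. Of the 4, only MTO1, which modifies mitochondrial tRNA, was called with the GC trend removed and in the fit without replicate 3, and its TE change was 1.22 ± 0.26 (adjusted p = 0.0030, edgeR). None of the 18 passed the TE test with CID661578. With DMSO the partners had a median log2 ratio of polysome-associated to total RNA of -0.37, with 4 higher, at 22.2% against 26.4% of all genes, and 8 lower, at 44.4% against 29.6%.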

How the data were processed

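Total cytosolic and polysome-associated RNA of 12 PANC-1 plates were sequenced as Smart-seq2 libraries. Per the study's methods the authors removed rRNA reads with BBDuk, aligned to hg38 with HISAT2 and counted reads on RefSeq genes with featureCounts at default settings, which ignore strand. The deposited values are raw counts of 54583 genes in 24 libraries, between 1592459 and 12184749 reads each, and depth limits the precision of members at low counts. The labels name RPMI medium and the methods DMEM.

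Members and lists were chosen with earlier results of these data known. As in the study, only genes with at least 1 read in each library were kept. edgeR 4.0.16 in R 4.3.3 fitted the TMM-normalized counts (quasi-likelihood test), with terms for plate, for replicate in each fraction and for the TE change with each compound. Total and polysome libraries were also fitted separately with treatment and replicate. Calls need a Benjamini-Hochberg adjusted p below 0.15 and, for TE and for the DMSO ratio, more than 1.2-fold, after the study's thresholds. The study used anota2seq, and the analysis of partial variance that follows its description is an alternative here. CPM are counts scaled to the normalized library size. SE is the log2 change divided by the root of F. Scripts were tested on simulated counts.

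The replicate number joins plates because the methods name the replicate as the batch. Deviations of treated libraries correlated with those of DMSO of the same number at r above 0.1 in 13 of 16 cases (-0.02 to 0.55). Libraries of 1 group differed by far more than sampling noise (lowest chi-square per degree of freedom 14.9).

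Results of some members and of 1 partner gene are not reported one by one here, but counts and medians include these members. Values in each library are given for the 2 cytosolic and 2 mitochondrial members with the highest and lowest TE change with each compound, for AARS1, AARS2, GARS1, KARS1, EPRS1, AIMP1 and AIMP2, and for members called in total RNA, and further ones, such as CARS1, SARS1 and FARSB, were added after their values were seen. Of the partner and response lists at most 4 called genes with the largest change are described. Spans are RefSeq on GRCh38.p14. Transcript length and GC content are from GENCODE v44. Alternatives were normalization, filters, tests, thresholds, GC correction, model terms, replicates left out and AIMP2 placed with the mitochondrial members.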

Additional observations from a re-analysis of the deposited data

Results flagged for a closer look

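In 13 of the 228 sets of 4 libraries (a member in 1 treatment and fraction, or the median of a group of members over the plates of 1 treatment), the highest or lowest library lay apart from the other 3 by Dixon's 95% criterion, which chance meets in about 1 in 20 sets. Values are CPM, and no explanation was tested. In 7 of the 13 the library was replicate 2, always as the lowest. With DMSO, replicate 2 stood at 91.9 for total FARSB (others 164 to 169). With CID661578, replicate 2 was apart in polysome-associated LARS1 at 68.1 (117 to 119), NARS1 at 95.8 (206 to 239) and RARS2 at 32.0 (63.9 to 73.3), and in total WARS1 at 64.4 (103 to 107). With cercosporamide, replicate 2 was apart in total KARS1 at 94.6 (114 to 118) and in polysome-associated TARS2 at 57.3 (76.9 to 78.1).

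The other 6 were spread over replicates. In total RNA with cercosporamide, AARS1 was lowest in replicate 4 at 40.9 (47.9 to 49.4), AARS2 lowest in replicate 3 at 1.93 (5.85 to 6.82) and EPRS1 highest in replicate 3 at 109 (54.5 to 60.1). In total RNA with CID661578, IARS2 was highest in replicate 1 at 83.5 (39.6 to 42.0) and LARS2 highest in replicate 4 at 6.69 (4.72 to 4.98). Polysome-associated PARS2 with CID661578 was highest in replicate 1 at 13.8 (6.37 to 6.94).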

How the results depend on the processing

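Counts are members called in either direction, and leaving out a replicate is given as lowest to highest. With neither replicate block nor plate terms in the TE and DMSO ratio fits, and with no replicate block in the others, cercosporamide TE calls were 2 cytosolic and 1 mitochondrial (from 13 and 3), calls between the compounds 0 (from 10), polysome calls with CID661578 0 and 0 (from 3 and 1), DMSO ratio calls 8 and 4 (from 16 and 9), and the mitochondrial median in total RNA with CID661578 -0.0720. Over all 12058 genes, the TE fit without these terms made 621 higher and 336 lower calls for cercosporamide. Between the compounds it made 14 and 4. With plate terms kept and only the replicate block dropped, cercosporamide TE calls were 11 and 3 (1731 higher and 1318 lower over all genes). With no filter on low counts, cytosolic TE calls were 8 for cercosporamide and 5 between the compounds, and at an adjusted p below 0.05 they were 8 and 3, polysome calls with CID661578 1 and 0, and DMSO ratio calls 10 and 4. With the GC trend removed, the cytosolic TE median with CID661578 was 0.0419, polysome calls with CID661578 were 0 and 0, 1 mitochondrial member was called between the compounds, and the DMSO ratio of AIMP1, -0.09 and not called, became 0.406. Mitochondrial calls with cercosporamide were 1 in total RNA with DESeq2, no filter or the GC trend removed, and 2 in polysome-associated RNA with DESeq2, filterByExpr or the GC trend removed. TMM within each fraction moved the DMSO medians to 0.63 and 0.69.

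Without each replicate in turn, cercosporamide TE calls were 8 to 11 cytosolic and 1 to 4 mitochondrial, calls between the compounds 2 to 8 and 0 to 2, and CID661578 TE calls 0 to 1 mitochondrial with a cytosolic median of 0.0502 to 0.162. Polysome calls were 1 to 4 and 0 to 1 with CID661578 and 1 to 2 mitochondrial with cercosporamide. Mitochondrial medians in total RNA were -0.0956 to 0.0691 with CID661578 and -0.135 to 0.0719 with cercosporamide. DMSO ratio calls were 10 to 20 cytosolic. Over all genes, these fits made 1045 to 1659 higher and 771 to 1682 lower calls for cercosporamide TE. The causes were not tested. Over single members, 515 of 624 alternative values for cercosporamide TE kept direction and side of the threshold, and 32 changed sign without being called. For the DMSO ratio, 436 of 546 alternative values kept both, 57 were weaker and 1 was reversed in direction. Leaving out the shallow pair in the single-fraction fits and in the DMSO ratio, the DMSO ratio with plate terms kept, and the refits of the response and partner lists were chosen after seeing the data. Between the compounds, the analysis of partial variance and the fits with 1 compound gave no value.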
